A study of Mus musculus with 15 samples.

Results

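A set of 10 genes of redox defence was followed through the knockdown of *Smarcb1* in mouse embryonic stem cells (mESC). They were the glutathione peroxidases *Gpx1*, *Gpx2*, *Gpx3* and *Gpx4*, the mitochondrial carrier *Ucp2*, and the stress enzymes *Gclm*, *Hmox1*, *Nqo1*, *Txnrd1* and *Srxn1*. These 10 of 55228 listed genes were taken by symbol. *Gpx2* and *Ucp2* were chosen by their FPKM, which was lower in the knockdown than in the controls, so their knockdown values are given as a description with no test. The other 8 were added for their function, with earlier results of these data known, and were tested.

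The cells were of the line 81K1, which is based on OG2 mESC. All groups share this 1 clone, with a cassette for an shRNA against *Smarcb1* placed in the Rosa26 locus and switched on by doxycycline. In the knockdown (kd), 1 µg of doxycycline per ml was added daily for 48 h, 72 h or 240 h, and untreated controls (ctrl) were taken at 48 h and 240 h. Each of the 5 groups had 3 libraries. Since 72 h has no ctrl group here, 72 h kd was set against 48 h ctrl, as the study did. There, time in culture differs too and cannot be told apart from the knockdown. Between kd groups, time in culture and length of knockdown cannot be told apart. Kd and ctrl also differ in the drug itself, so an effect of doxycycline and an effect of the knockdown cannot be told apart. Every group grew on gelatine with LIF and with beta-mercaptoethanol, a reducing agent. RNA was sequenced as single reads, and the values are FPKM, reads per kilobase of the whole gene span, scaled to the reads of the library.

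Glutathione peroxidases reduce hydrogen peroxide and lipid peroxides at the expense of glutathione. Gpx1 is the abundant form of the cytosol and mitochondria, Gpx2 is best known from the gut epithelium, Gpx3 is secreted, and Gpx4 acts on lipid peroxides in membranes and guards against ferroptosis. Ucp2 is a carrier of the inner mitochondrial membrane that has been linked to lower production of reactive oxygen species and to the substrate use of pluripotent cells. *Gclm*, *Hmox1*, *Nqo1*, *Txnrd1* and *Srxn1* are textbook targets of the transcription factor Nrf2 (gene *Nfe2l2*), which binds antioxidant response elements and is held in check by Keap1, while Bach1 represses some of the same genes.

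The target of the shRNA was lower in every kd library. *Smarcb1* lay between 3.31 and 3.93 FPKM in the 6 ctrl libraries and between 0.503 and 0.82 FPKM in the 9 kd libraries. In limma this was a log2 fold change (± SE) of -2.33 ± 0.16 after 48 h (adjusted p = 0.00169), -2.48 ± 0.09 after 72 h (adjusted p = 4.2e-05) and -2.21 ± 0.06 after 240 h (adjusted p = 5.7e-05). Depth ran from 11074998 to 14515300 reads per library. Library 2 of the 48 h kd group stood apart from its group, with 2.35% of gene reads from mitochondrial genes against 1.15% and 1.19% in the other two, so the calls of members and of named redox genes that involve this group are also given without it. *Smarcb1* at 48 h was -2.49 without it (adjusted p = 0.00229). Library 3 of 240 h ctrl stood apart as well, with a mitochondrial share of 0.469% against 1.35% and 1.17%, and the calls of members and of named redox genes at 240 h are given without it too. The markers below were not refitted without it. *Smarcb1* at 240 h was then -2.22 (adjusted p = 0.000511). The 10 embryonic stem cell markers were detected in all groups, but not all held their level. *Klf4* was downregulated at all 3 times, by 0.87, 0.76 and 1.2 in log2 units, and *Zfp42* (-0.58) and *Esrrb* (-0.78) were downregulated at 240 h. *Dppa5a* was upregulated at 72 h, from 765 to 1570 FPKM, and the summed level of the list lay between 1710 and 2770 FPKM, highest in 72 h kd. Markers of other cell types moved with time and knockdown in part. The 8 trophoblast markers summed to 10.6 to 11.9 FPKM in 240 h ctrl and 23.2 to 23.3 FPKM in 240 h kd, with 3 of the 3 genes fitted called higher and none at 0, while *Eomes*, which could not be fitted, stood lower at 0.316 against 0.652 FPKM. At 48 h they summed to 12.1 to 12.9 FPKM in ctrl and 8.19 to 9.07 FPKM in kd, and at 72 h kd to 20.4 to 21.7 FPKM, with *Tfap2c* the one called at both times (8.77 FPKM in 48 h ctrl, 5.69 and 16.6 FPKM in kd), while at 72 h *Eomes* and *Krt8* were not called. The 7 neural progenitor markers summed to 7.42 to 8.62 FPKM in the ctrl libraries and to 13.1 to 14.9, 17 to 18.8 and 19.7 to 21 FPKM in 48 h, 72 h and 240 h kd, with *Neurog2* at 0 in all groups but 240 h kd. At 48 h and 72 h *Sox1* was the one of them called, from 4.69 FPKM in 48 h ctrl to 11.7 and 15.8 FPKM, while *Nes* stood lower at 2.09 and 2.02 FPKM against 2.86 FPKM (not called) and *Pax6* at 0.144 and 0.117 FPKM against 0.4 FPKM (not fitted). At 240 h *Sox1* and *Nes* were both called higher. The 6 macrophage or blood markers rose through *Cd68* alone in the tests at 48 h and 72 h, from 1.39 FPKM in 48 h ctrl to 3.05 and 5.78 FPKM, with *Hbb-bt* at 0 in every group. The 8 fibroblast markers summed to 0.888 to 0.998 FPKM in 240 h ctrl and 1.4 to 1.63 FPKM in 240 h kd, though its genes differed in direction. *Col1a1*, which reached 0.5 FPKM through kd alone, stood at 0.923 against 0.261 FPKM, and *Thy1* at 0.452 against 0.646 FPKM (not called), with *Lum* and *Postn* at 0 in both ctrl groups. The 8 primitive endoderm markers summed to at most 0.876 FPKM in any library and the 6 mesoderm markers to at most 1.16 FPKM, and none of them could be fitted in the knockdown comparisons. The part of these markers in the results below was not tested. In bulk RNA, fewer cells of a type and less RNA per cell cannot be told apart.

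The stretch just before the transcription start is shown for 5 members: *Gpx2* and *Ucp2*, which were lower in the knockdown, *Srxn1* and *Gclm*, which were called higher at some time, and *Txnrd1*, which was never called. Promoter windows of 300 bases (250 before and 50 after the start, RefSeq, GRCm38.p6) were found for 9 of the 10 members, in 14 windows, *Hmox1* being the gene without one. They were searched on both strands for the core of the antioxidant response element, TGACNNNGC, and for the AP-1 motif, TGANTCA. The 150 bases up to the start are printed 5′ to 3′ on the strand of the gene, with motif matches on either strand in capitals.
*Gpx2* (chr12:76795555-76795704, minus strand): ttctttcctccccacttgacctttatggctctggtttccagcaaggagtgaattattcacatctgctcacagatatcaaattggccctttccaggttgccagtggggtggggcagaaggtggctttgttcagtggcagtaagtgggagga
*Ucp2* (chr7:100493208-100493357, plus strand): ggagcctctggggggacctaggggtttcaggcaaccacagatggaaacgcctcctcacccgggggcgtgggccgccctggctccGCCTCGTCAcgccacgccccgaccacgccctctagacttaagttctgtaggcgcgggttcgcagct
*Srxn1* (chr2:152105374-152105523, plus strand): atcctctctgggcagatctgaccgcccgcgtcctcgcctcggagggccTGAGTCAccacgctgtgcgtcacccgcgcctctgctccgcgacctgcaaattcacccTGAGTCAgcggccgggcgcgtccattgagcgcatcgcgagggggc
*Gclm* (chr3:122245407-122245556, plus strand): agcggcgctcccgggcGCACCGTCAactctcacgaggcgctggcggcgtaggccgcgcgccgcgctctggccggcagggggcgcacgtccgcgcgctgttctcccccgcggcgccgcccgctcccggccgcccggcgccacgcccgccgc
*Txnrd1*, second of 3 windows (chr10:82859056-82859205, plus strand): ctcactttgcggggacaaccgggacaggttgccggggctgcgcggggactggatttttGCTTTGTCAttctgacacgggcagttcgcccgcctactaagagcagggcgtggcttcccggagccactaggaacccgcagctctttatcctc

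The antioxidant core occurred in members of each of these kinds. *Ucp2* had a match at base -66 and *Gclm* at base -134, each read on the minus strand relative to the gene. *Txnrd1* had a match at base -92 of its second window, and *Srxn1* had a match at base 29 after its start, which lies outside the printed stretch. *Srxn1* also carried the AP-1 motif at bases -102 and -45, and no other member window held it. No window of *Gpx2*, *Gpx1*, *Gpx3*, *Gpx4* or *Nqo1* held either motif. Over all 32851 windows of that length in the table, 12.4% held the antioxidant core and 7.81% the AP-1 motif. A match is a stretch of letters and was not tested for binding.

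The members differed widely in level. Because the deposited values divide by the gene span with its introns, levels between genes were compared as reads per kilobase of exon, with the same scaling to library size. On that scale *Gpx1* was the highest in 48 h ctrl at 75.3 ± 3.69 (SD, n = 3). *Hmox1* followed at 62.1 ± 2.36, *Gpx4* at 53.3 ± 2.84 and *Txnrd1* at 50 ± 1.25. Then came *Nqo1* at 27.0 ± 1.17, *Gclm* at 20.8 ± 0.926, *Ucp2* at 17.4 ± 1.08 and *Srxn1* at 17.2 ± 0.542. *Gpx3* at 6.02 ± 0.334 and *Gpx2* at 1.06 ± 0.2 were the lowest. *Gpx4* and *Txnrd1*, as well as *Ucp2* and *Srxn1*, lay within their spread of each other. All other values below are FPKM over the gene span, and log2 fold changes, given with ± the standard error (SE) of the fit, are of log2(FPKM + 0.1), which understates the change of low genes.

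**Figure D1:**
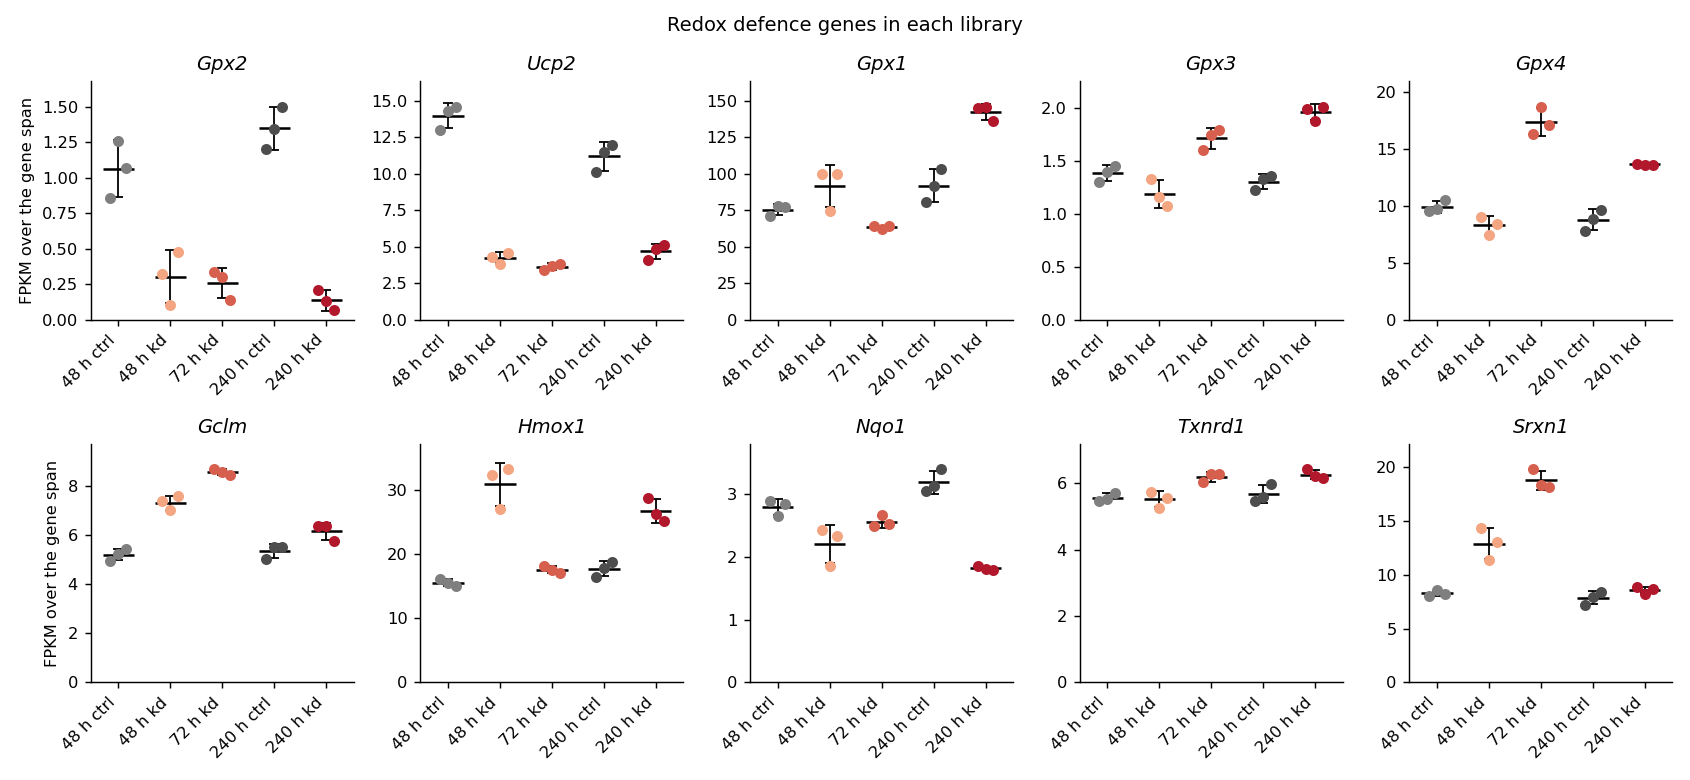
Expression of the 10 redox defence genes in FPKM over the gene span (y axis, starting at 0, 1 scale per gene) in each library of the 5 groups (x axis); points are libraries, lines the group mean and bars the SD (n = 3). *Gpx2* and *Ucp2* were lower in all 9 kd libraries than in all 6 ctrl libraries, *Srxn1* and *Gpx4* peaked in 72 h kd, and *Gpx1* was highest in 240 h kd.

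*Gpx2* and *Ucp2*, the genes chosen for their lower values, were low at every time point of the knockdown. *Gpx2* lies on the minus strand of chr12:76792333-76795554 and was a weakly expressed gene throughout. Its FPKM was 0.86, 1.26 and 1.07 in the 48 h ctrl libraries and 1.2, 1.34 and 1.5 in 240 h ctrl. With the knockdown it was 0.323, 0.106 and 0.476 at 48 h, 0.339, 0.301 and 0.14 at 72 h, and 0.212, 0.128 and 0.0684 at 240 h. No kd library reached the lowest ctrl library, and the 3 kd groups overlapped one another. The log2 fold change was -1.64 ± 0.40 at 48 h, -1.72 ± 0.27 at 72 h and -2.65 ± 0.24 at 240 h. At all 3 times *Gpx2* reached the minimum mean of 0.5 FPKM through its ctrl libraries alone. At so low a level the size depends on the constant added: with 1 FPKM in place of 0.1 it was -0.67, -0.71 and -1.05, and with limma voom on reads -3.32 at 240 h. Without library 2 of 48 h kd the 48 h value was -1.22. Between the 2 ctrl groups *Gpx2* did not pass the test (log2 fold change 0.32 ± 0.15, adjusted p = 0.23).

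The *Gpx2* values rest on few reads, which may also count for another gene. *Gpx2* sits wholly inside *Fntb* (chr12:76765589-76921412, plus strand), which encodes the beta subunit of farnesyltransferase. Whether reads were counted by strand was not tested, so those of *Gpx2* and of the *Fntb* intron around it may not be told apart. The span of *Gpx2* held 38, 45 and 39 reads in 48 h ctrl and 48, 53 and 62 reads in 240 h ctrl. In the knockdown the reads numbered 12, 4 and 17 at 48 h, then 14, 12 and 6 at 72 h, and 9, 6 and 3 at 240 h. *Fntb* itself stayed between 1086 and 1469 reads in all 15 libraries, and its log2 fold change was 0.07 ± 0.07 at 48 h, -0.09 ± 0.06 at 72 h and -0.01 ± 0.07 at 240 h (adjusted p = 0.571, 0.308 and 0.951). For an estimate, all *Gpx2* reads were taken as counted in *Fntb* too. Spread evenly, the reads of *Fntb* outside *Gpx2* would put 22.0 to 30.9 reads into the *Gpx2* span, which is more than any kd library held and fewer than every ctrl library held. With that density taken off, *Gpx2* kept 0.246 to 0.644 FPKM in 48 h ctrl and 0.604 to 0.832 FPKM in 240 h ctrl. All 9 kd libraries held fewer reads than that density gives, and their negative remainders were set to 0. The density is thus too high for this span in kd, and the ctrl remainders may be too low. That even density includes the exons of *Fntb*, of which no base falls in the *Gpx2* span. A processed copy, *Gpx2-ps1*, had 0 to 1 reads.

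**Figure D2:**
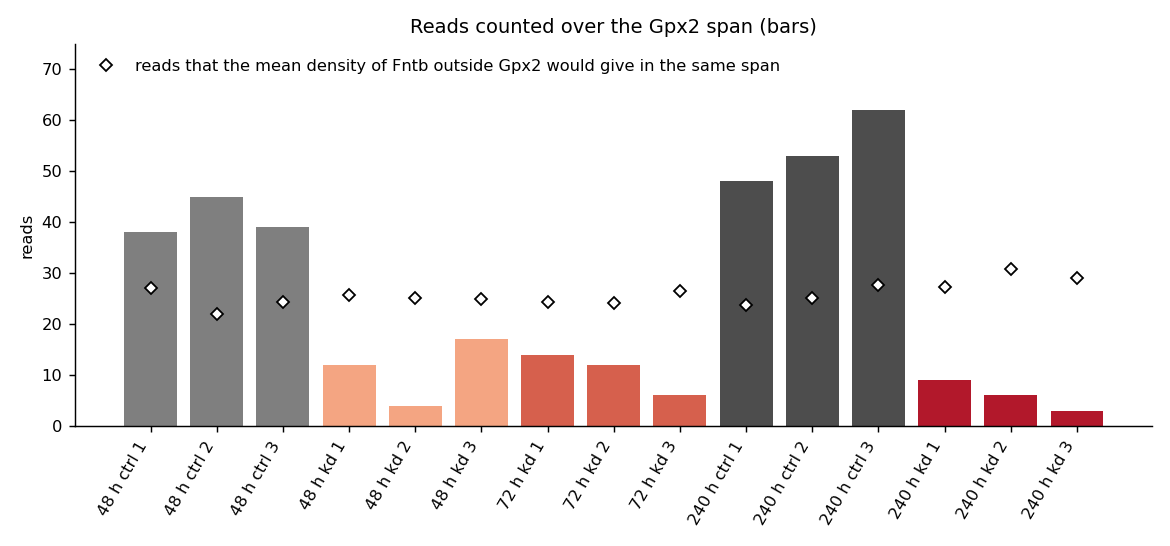
Reads counted over the span of *Gpx2* in each of the 15 libraries (bars, y axis in reads starting at 0; x axis, libraries), with the number that the mean read density of *Fntb* outside *Gpx2* would give in the same span (diamonds). All 6 ctrl bars lie above their diamonds (22.0 to 27.7 reads) and all 9 kd bars lie below theirs (24.1 to 30.9 reads).

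*Ucp2* (chr7:100493337-100502020, plus strand) was expressed at a level where reads set no limit, with 377 to 1547 reads per library. It measured 13, 14.3 and 14.6 FPKM in 48 h ctrl and 10.1, 11.5 and 12 FPKM in 240 h ctrl. After 48 h of knockdown it measured 4.29, 3.84 and 4.6 FPKM, after 72 h it measured 3.39, 3.69 and 3.84 FPKM, and after 240 h it measured 4.1, 4.83 and 5.13 FPKM. The ctrl and kd ranges did not meet. The ratio of the group means was 0.303 at 48 h, 0.261 at 72 h and 0.418 at 240 h, with log2 fold changes of -1.70 ± 0.08, -1.91 ± 0.07 and -1.24 ± 0.10. Set against 240 h ctrl, 72 h kd gave -1.60. *Dnajb13*, a gene on the opposite strand that shares the last 305 bases of *Ucp2* (3.51% of its span), had 4 to 13 reads, and taking its density off left every group mean as it was. In ctrl cells *Ucp2* was lower at 240 h than at 48 h in all 3 libraries, a log2 fold change of -0.32 ± 0.08 that did not pass the test (adjusted p = 0.0852). From 72 h kd to 240 h kd it was 0.35 higher on the log2 scale (SE 0.09), given with no test.

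The members called among the other 8 overlapped in part between the times. A call needed an adjusted p under 0.05 in limma, with every gene whose mean reached 0.5 FPKM in the adjustment, and a log2 fold change beyond 0.58 in either direction. At 48 h, *Hmox1* and *Srxn1* were upregulated, 2 of 8, where 3.99% of all 11420 genes tested were called and 1.99% were called higher. At 72 h, *Gpx4*, *Gclm* and *Srxn1* were upregulated, 3 of 8, beside 13.5% of 11440 genes, or 8.23% in that direction. At 240 h, *Gpx1*, *Gpx4* and *Hmox1* were upregulated and *Nqo1* was downregulated, 4 of 8, beside 8.91% of 11401 genes, or 4.79% higher and 4.12% lower. Without library 1 of 240 h ctrl, 1 of the 8 was called at 240 h, *Nqo1*. No member was called at all 3 times. The kd and ctrl libraries did not overlap for 5, 7 and 7 of the 8 members, beside 39.4%, 64.7% and 50.2% of all genes tested. The median log2 fold change of the 8 was 0.13, 0.23 and 0.38, against 0.01, 0.01 and -0.0016 over all genes tested.

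**Figure D3:**
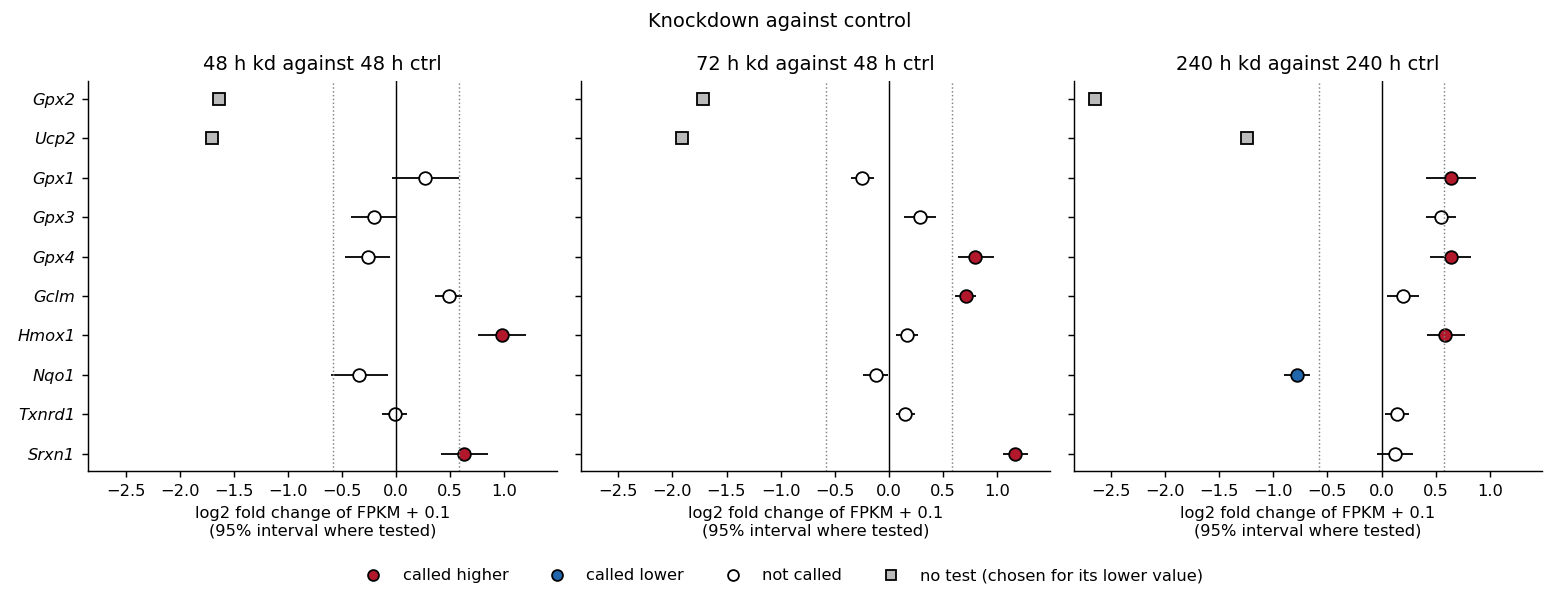
Log2 fold change of FPKM + 0.1 (x axis) of each member (y axis) in the 3 knockdown comparisons, with 95% intervals for the tested members; filled circles are called genes, open circles genes not called, grey squares *Gpx2* and *Ucp2*, which carry no test, and dotted lines the threshold of 0.58. *Srxn1* moved from 1.17 at 72 h to 0.12 at 240 h, while *Gpx1* lay at 0.64 and *Nqo1* at -0.78 at 240 h.

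Among the peroxidases, *Gpx4* was upregulated at 72 h and 240 h and *Gpx1* at 240 h. *Gpx4* (chr10:80047166-80056439, plus strand) measured 9.53, 9.7 and 10.5 FPKM in 48 h ctrl and 9.01, 7.43 and 8.36 FPKM in 48 h kd. It measured 16.3, 18.7 and 17.1 FPKM in 72 h kd, 7.8, 8.82 and 9.64 FPKM in 240 h ctrl, and 13.7, 13.6 and 13.6 FPKM in 240 h kd. The 48 h kd libraries thus lay just under their controls, and the later kd libraries lay clear above theirs. Its log2 fold change was -0.26 ± 0.08 at 48 h (adjusted p = 0.0879), 0.80 ± 0.07 at 72 h (adjusted p = 0.000323) and 0.64 ± 0.08 at 240 h (adjusted p = 0.00247). Leaving out library 1 of 240 h ctrl brought the last value to 0.56, under the fold threshold, and leaving out library 3 brought it to 0.71. *Gpx4* has a processed copy, *Gpx4-ps2*, whose 19 to 53 reads rose alongside it (0.65 at 72 h and 0.73 at 240 h on the log2 scale), so reads may be shared between them. They are few beside the 808 to 2148 reads of *Gpx4*.

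*Gpx1* (chr9:108338903-108340343, plus strand) was upregulated at 240 h, and lay under its controls at 72 h. Its FPKM was 71.0, 77.6 and 77.3 in 48 h ctrl, 99.5, 74.8 and 99.7 in 48 h kd, and 64.0, 62.4 and 63.9 in 72 h kd. At 240 h it was 80.6, 91.6 and 103 in ctrl and 145, 146 and 136 in kd. At 48 h the groups overlapped through the library with the high mitochondrial share, which gave the 74.8. At 48 h the log2 fold change was 0.27 ± 0.13 (adjusted p = 0.21) and 0.40 without that library (adjusted p = 0.0137). Its value was -0.25 ± 0.04 at 72 h (adjusted p = 0.00455, under the fold threshold; -0.52 against 240 h ctrl, adjusted p = 0.0045) and 0.64 ± 0.09 at 240 h (adjusted p = 0.00485). The 240 h value was 0.55 without library 1 of 240 h ctrl, and then under the fold threshold, and 0.73 without library 3.

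*Gpx3* (chr11:54902453-54910377, plus strand), the secreted peroxidase, stood near the threshold at 240 h. It measured 1.3, 1.39 and 1.45 FPKM in 48 h ctrl, 1.33, 1.16 and 1.07 FPKM in 48 h kd and 1.6, 1.74 and 1.79 FPKM in 72 h kd. At 240 h the ctrl libraries gave 1.22, 1.33 and 1.36 FPKM and the kd libraries 1.99, 1.87 and 2.01 FPKM. Both later kd groups lay above their controls with no overlap. Its log2 fold change was -0.20 ± 0.09 at 48 h (adjusted p = 0.174), 0.29 ± 0.06 at 72 h (adjusted p = 0.00941) and 0.55 ± 0.06 at 240 h (adjusted p = 0.00131). Neither of the last values passed the fold threshold as tested, although the 240 h value did with limma voom (0.59), with a constant of 0.01 FPKM (0.58), and without library 3 of 240 h ctrl (0.58, adjusted p = 0.00386) or library 2 of 240 h kd (0.58, adjusted p = 0.0058).

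Of the Nrf2 targets, *Srxn1* and *Gclm* followed a similar course. *Srxn1* (chr2:152105516-152111376, plus strand) encodes sulfiredoxin, which restores overoxidised peroxiredoxins. It measured 8.02, 8.54 and 8.23 FPKM in 48 h ctrl, 14.3, 11.4 and 13 FPKM in 48 h kd and 19.8, 18.3 and 18.2 FPKM in 72 h kd. By 240 h the kd libraries, at 8.84, 8.23 and 8.66 FPKM, overlapped the ctrl libraries, at 7.21, 7.95 and 8.44 FPKM. This gave a log2 fold change of 0.63 ± 0.09 at 48 h (adjusted p = 0.00874), 1.17 ± 0.05 at 72 h (adjusted p = 4.57e-05) and 0.12 ± 0.07 at 240 h (adjusted p = 0.2). The 48 h call was lost without library 1 of 48 h kd (0.56) and kept without library 2 (0.72, adjusted p = 0.00613).

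*Gclm* (chr3:122245557-122270732, plus strand) encodes the modifier subunit of glutamate-cysteine ligase, the first enzyme of glutathione synthesis. It gave 4.95, 5.22 and 5.41 FPKM in 48 h ctrl, 7.36, 7.0 and 7.57 FPKM in 48 h kd and 8.67, 8.58 and 8.45 FPKM in 72 h kd. At 240 h it gave 5.0, 5.5 and 5.51 FPKM in ctrl and 6.36, 6.35 and 5.74 FPKM in kd. The kd libraries lay above their controls at each time. The log2 fold change was 0.49 ± 0.05 at 48 h (adjusted p = 0.00437, under the fold threshold), 0.71 ± 0.04 at 72 h (adjusted p = 0.000103) and 0.20 ± 0.06 at 240 h (adjusted p = 0.0536). Over 58.7% of its span *Gclm* is overlapped on the opposite strand by *Gm17494* (chr3:122255958-122293720), a transcript with 3401 to 5247 reads per library, and the reads of the shared stretch may not be told apart. *Gclm* itself had 1457 to 2825 reads, and it shares 296 exonic bases with *Gm17494*. How many of the *Gclm* reads lie in the shared stretch was not tested. *Gm17494* had log2 fold changes of 0.29 after 48 h, 0.23 after 72 h and 0.17 after 240 h, less than *Gclm* in each case. *Gm6061*, a pseudogene within *Gclm*, had 0 to 5 reads.

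*Hmox1* (chr8:75093621-75100589, plus strand), haem oxygenase 1, was upregulated at 48 h and at 240 h, with lower values between. It measured 16.2, 15.5 and 15.1 FPKM in 48 h ctrl, 32.4, 27.1 and 33.3 FPKM in 48 h kd, and 18.2, 17.5 and 17.1 FPKM in 72 h kd. At 240 h it measured 16.5, 17.9 and 18.8 FPKM in ctrl and 28.8, 26.3 and 25.2 FPKM in kd. The kd libraries did not overlap the controls in any of these comparisons. Its log2 fold change was 0.98 ± 0.09 at 48 h (adjusted p = 0.00307), 0.17 ± 0.04 at 72 h (adjusted p = 0.0139, under the fold threshold) and 0.59 ± 0.07 at 240 h (adjusted p = 0.00235). Without library 2 of 48 h kd the first value was 1.07 (adjusted p = 0.00229). Against 240 h ctrl, 72 h kd gave -0.01. The 240 h value stood just past the threshold and fell to 0.54 without library 1 of 240 h ctrl or library 1 of 240 h kd, and to 0.57 with a constant of 1 FPKM. It was 0.63 without library 3 of 240 h ctrl.

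*Nqo1* (chr8:107388225-107403206, minus strand), the quinone reductase, was the one member of the 8 to be downregulated. It measured 2.9, 2.66 and 2.84 FPKM in 48 h ctrl, 2.43, 1.86 and 2.33 FPKM in 48 h kd, and 2.49, 2.67 and 2.52 FPKM in 72 h kd. At 240 h it measured 3.05, 3.13 and 3.4 FPKM in ctrl and 1.85, 1.81 and 1.8 FPKM in kd. Only the 240 h kd libraries were far from their controls. The log2 fold change was -0.34 ± 0.11 at 48 h (adjusted p = 0.0876), -0.12 ± 0.05 at 72 h (adjusted p = 0.0663; -0.31 against 240 h ctrl, adjusted p = 0.00438) and -0.78 ± 0.05 at 240 h (adjusted p = 0.000261), the last becoming -0.57 with a constant of 1 FPKM and -0.73 without library 3 of 240 h ctrl. *Txnrd1* (chr10:82833951-82897712, plus strand), the cytosolic thioredoxin reductase, varied little, between 5.26 and 6.42 FPKM in all 15 libraries. Its log2 fold change was -0.01, 0.15 and 0.14 at the 3 times (SE 0.05, 0.03 and 0.04; adjusted p = 0.879, 0.0102 and 0.0577). *Txnrd1* overlaps *Gm38560*, *Gm47073* and *Eid3*, which had at most 23 reads in any library.

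No member passed the test between untreated cells of the 2 times. Between 240 h ctrl and 48 h ctrl, 0 of the 10 members were called in limma, beside 0.475% of 11359 genes, and their log2 fold changes ran from -0.32 to 0.32. At an unadjusted p under 0.05 there were 4, *Ucp2*, *Hmox1*, *Nqo1* and *Gpx1*. With limma voom on the recovered reads 0 were called, beside 1.31% of 16215 genes.

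Within the knockdown, the members moved in different directions between times. From 48 h kd to 72 h kd, *Gpx4* was upregulated by 1.06 ± 0.09 (adjusted p = 0.00146) and *Hmox1* changed by -0.80 ± 0.09 (adjusted p = 0.00266) on the log2 scale. Without library 2 of 48 h kd these were 0.99 (adjusted p = 0.00252) and -0.90 (adjusted p = 0.00142). They were 2 of the 8 members tested, beside 7.45% of 11500 genes, and without that library *Gpx1* was called as well (-0.65, adjusted p = 0.00142). Without library 1 of 48 h kd *Srxn1* was called too (0.61, adjusted p = 0.0106). From 72 h kd to 240 h kd, *Gpx1* was upregulated by 1.17 ± 0.03 (adjusted p = 2.19e-05) and *Hmox1* by 0.60 ± 0.06 (adjusted p = 0.000408), while *Srxn1* changed by -1.12 ± 0.05 (adjusted p = 4.74e-05). These were 3 of 8, beside 15.7% of 11463 genes. *Hmox1* was no longer called without library 1 of 240 h kd (0.55) or with a constant of 1 FPKM (0.58). *Gpx2*, at a mean under 0.5 FPKM in the kd groups, could not be fitted in these comparisons.

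The effects of the knockdown at 240 h and at 48 h were compared by an interaction term over the 12 libraries of these times. *Gpx3* and *Gpx4* were called, 2 of 8, beside 5.82% of 11412 genes. The effect on *Gpx4* was 0.90 higher on the log2 scale at 240 h (SE 0.12, adjusted p = 0.000861), 0.83 higher without library 2 of 48 h kd and 0.97 higher without library 3 of 240 h ctrl. For *Gpx3* it was 0.76 higher (SE 0.11, adjusted p = 0.00117), 0.75 and 0.79 without these libraries, and 0.48 with a constant of 1 FPKM, which ended the call. *Srxn1* had a difference of -0.51 ± 0.11 (adjusted p = 0.0142), which passed the fold threshold without library 2 of 48 h kd (-0.59, adjusted p = 0.00327). The remaining 5 lay between -0.44 (*Nqo1*, adjusted p = 0.0358) and 0.37 (*Gpx1*, adjusted p = 0.169). For *Gpx2* the difference was -1.01 ± 0.50 and for *Ucp2* 0.45 ± 0.14, given with no test.

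Around the members, 121 further redox genes were followed in 10 groups, from Nrf2 and its partners to glutathione transferases and selenoproteins. At 48 h, 84 of them could be fitted, of which 1 was upregulated and 2 were downregulated, a share near the 3.99% of all genes. At 72 h it was 12 up and 4 down of 87, beside 13.5% of all genes, and at 240 h 3 up and 2 down of 82, a smaller share than the 8.91% of all genes. Of the genes called down, *Selenop* at 72 h and *Gstt3* at 240 h reached 0.5 FPKM through ctrl alone and so had to differ. The median log2 fold change of the list was 0.01, 0.14 and -0.01 at these times, against 0.01, 0.01 and -0.0016 over all genes. Between the ctrl groups 0 of 81 were called in limma, 28 had an unadjusted p under 0.05, and 2 were called with limma voom, *Chac1* and *Gstm5*.

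At 72 h, the rises came from several branches of redox metabolism. Glutathione transferases, which couple glutathione to electrophiles, had 5 of 14 genes upregulated, beside 8.23% of all genes in that direction. Of the 5, *Gstm6* and *Gstp2* reached 0.5 FPKM through 72 h kd alone and so had to differ. *Gstt2* was the largest with a mean of at least 1 FPKM, with 7.19 FPKM in 72 h kd against 2.7 FPKM in 48 h ctrl (log2 fold change 1.38 ± 0.06, adjusted p = 6.13e-05). *Gstt2* was also the 1 gene up at 48 h (0.79 ± 0.07, adjusted p = 0.00328; 0.75 without library 2 of 48 h kd), while *Gstm2* was downregulated then (-0.80 ± 0.10, adjusted p = 0.00605; -0.79 without that library). These enzymes come in families of similar copies, so reads may be split between relatives and single values are uncertain. *Idh2*, a mitochondrial source of NADPH, rose by 1.15 ± 0.06 (adjusted p = 9.79e-05), and *Sqstm1*, which encodes the autophagy receptor p62 that binds Keap1, rose by 1.13 ± 0.05 (adjusted p = 4.93e-05). *Prdx6*, a peroxiredoxin that reduces phospholipid peroxides, was downregulated at 48 h (-0.73 ± 0.07, adjusted p = 0.00389; -0.66 without library 2 of 48 h kd) and 72 h (-1 ± 0.04, adjusted p = 4.2e-05). Also downregulated at 72 h were *Tfrc*, the transferrin receptor (-1.12 ± 0.04, adjusted p = 3.39e-05), and *Selenoh*, a nuclear selenoprotein (-0.62 ± 0.03, adjusted p = 5.05e-05).

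At 240 h few of these genes were called. *Gstp1* was upregulated (0.76 ± 0.14, adjusted p = 0.01), with the near-identical *Gstp2* as a possible source of shared reads, and so was the selenoprotein *Selenow* (0.60 ± 0.06, adjusted p = 0.00144). *Gsr*, which recycles oxidised glutathione, was downregulated from 5.42 to 3.56 FPKM (-0.59 ± 0.05, adjusted p = 0.000676). Without library 3 of 240 h ctrl these were 0.89 for *Gstp1*, 0.58 for *Selenow*, which was still called, and -0.55 for *Gsr*, which was not. From 72 h kd to 240 h kd, 20 of 86 genes were downregulated and 5 upregulated, beside 9.29% and 6.44% of all genes. Of the 14 glutathione transferases fitted, 10 were among the 20, and 3 of these, *Gstm6*, *Gstt3* and *Gstk1*, reached 0.5 FPKM through 72 h kd alone. With values rescaled to TPM the split of all calls in this comparison moved from 40.9% to 53.9% upregulated, and the list gave 23 calls in place of 25.

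The regulators and partners of the members were singled out by role after their values were seen. *Nfe2l2*, the gene of Nrf2, measured 3.16 FPKM in 48 h ctrl, 4.23 FPKM in 48 h kd and 4.47 FPKM in 72 h kd, a log2 fold change of 0.41 and then 0.48 (adjusted p = 0.0043 and 0.000258), under the fold threshold. At 240 h it was -0.19 (adjusted p = 0.0129), and its effect differed between 240 h and 48 h by -0.59 (adjusted p = 6.93e-05). This difference was -0.63 without library 2 of 48 h kd and -0.6 without library 3 of 240 h ctrl (adjusted p = 0.000304). *Keap1* gave 0.15, 0.22 and -0.29 and *Bach1* -0.33, -0.04 and -0.42 at the 3 times, none beyond the fold threshold. *Gclc*, the catalytic partner of *Gclm*, gave 0.15, 0.42 and -0.16 (adjusted p = 0.202, 0.000177 and 0.0275). *Txn1*, the substrate of *Txnrd1*, gave -0.15, -0.16 and -0.15, and *Prdx1*, a substrate of *Srxn1*, gave -0.06, -0.17 and -0.12. *Hmox2*, the constitutive haem oxygenase, gave 0.12, 0.15 and 0.24. Among haem and iron genes, *Blvrb* and the ferritin gene *Ftl1* were upregulated at 72 h, by 0.83 (adjusted p = 0.000232) and 0.74 (adjusted p = 0.000309), when *Hmox1* itself stood at 0.17. The haem and iron group then had 2 genes called higher and 1 lower, *Tfrc*, of 8 fitted, beside 8.23% of all genes called higher.

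**Figure D4:**
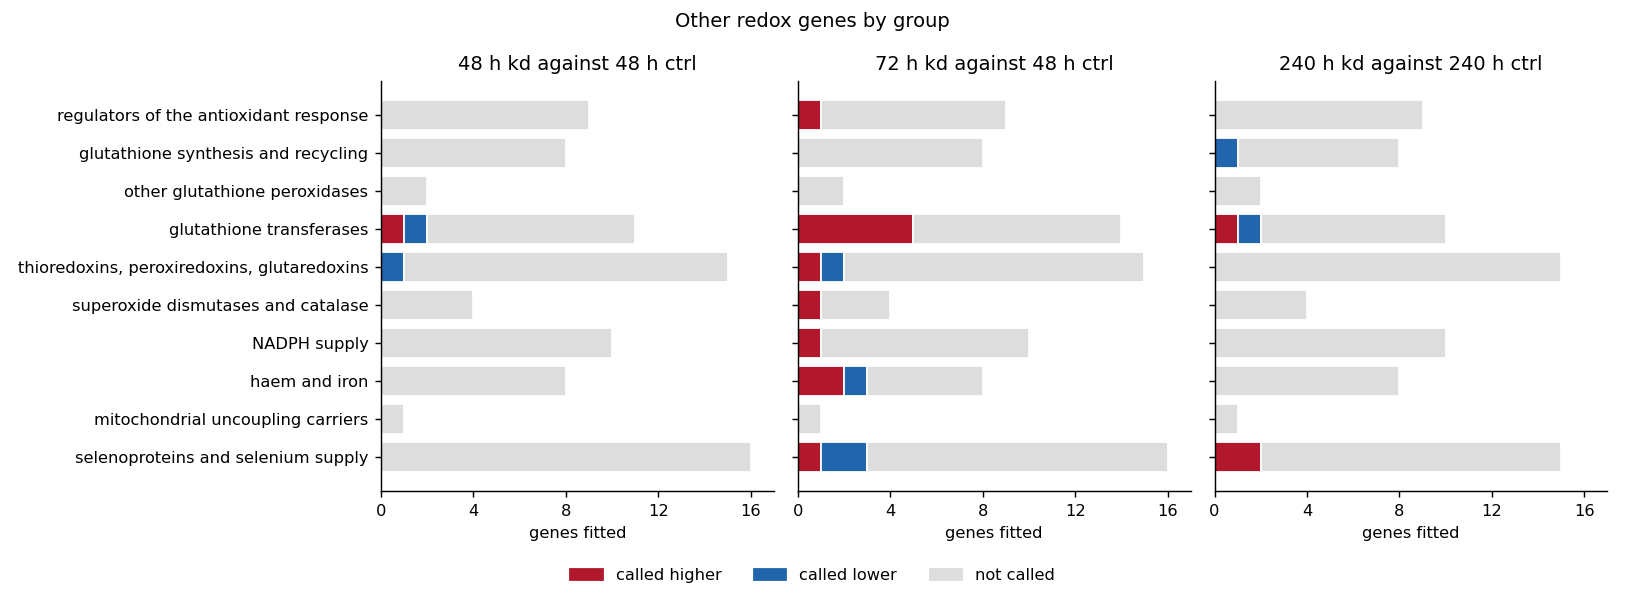
Number of genes fitted (x axis, starting at 0) in each of the 10 groups of other redox genes (y axis) in the 3 knockdown comparisons, divided into called higher, called lower and not called. Of the genes fitted, 3 were called at 48 h, 16 at 72 h, 5 of these being glutathione transferases, and 5 at 240 h. Called genes that reached 0.5 FPKM in 1 group alone were *Gstm6*, *Gstp2* and *Selenop* at 72 h and *Gstt3* at 240 h.

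The genes most like *Gpx2* and *Ucp2* in pattern were sought among 8856 protein-coding genes by Pearson's r of log2(FPKM + 0.1) over the 15 libraries. This is a description, since the libraries form 5 groups and the knockdown separates them. Closest to *Gpx2* were *Capn5* (r = 0.944), *Wdr5* (0.942), *Jup* (0.94), *Fam129b* (0.939) and *Nptx2* (0.938). Closest to *Ucp2* were *Spc24* (0.985), *Kcnk1* (0.982), *Actn1* (0.98), *Lama1* (0.971) and *Umps* (0.971). *Gpx2* and *Ucp2* had r = 0.856 with each other, and among the members *Nqo1* was the nearest to *Gpx2* (0.876) while *Gclm* ran most against *Ucp2* (-0.87).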

How the data were processed

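The deposited files held FPKM per gene for 15 libraries. The authors aligned single reads to mm10 (GRCm38) with STAR 2.7.0c, counted them per gene in R and tested counts with DESeq2 1.30.0, as far as the methods and processing notes say. FPKM times gene span and library total gave whole reads for 100% of values (tolerance 0.001), counted over whole spans. Whether they were counted by strand was not tested. Reads summed over genes exceeded the totals by 7.38% to 8.34%, since overlapping genes share reads. Groups came from the labels, which give no batch and do not say that replicates were separate cultures. P-values therefore measure the spread between libraries, which may be technical.

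Comparisons were fitted in limma 3.58.1 (R 4.3.3; lmFit, eBayes with a trend) on log2(FPKM + 0.1), two-sided, with Benjamini-Hochberg adjustment over all genes whose mean reached 0.5 FPKM. Simulated data with known changes were used to test the fits. The members and gene lists were chosen with earlier results of these data known. Besides members, the text names *Smarcb1*, genes that overlap members, near copies, up to 3 called genes per direction and knockdown comparison among other redox genes averaging 1 FPKM or more and no overlap of groups, and the 5 genes most like *Gpx2* and *Ucp2*. Identifiers, strand and exons came from GENCODE M21. Alternatives were other constants, FPKM minima, scalings, fits, thresholds and left-out libraries.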

Additional observations from a re-analysis of the deposited data

Results flagged for a closer look

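The effect of the knockdown differed between 240 h and 48 h for *Gpx3*, by 0.76 on the log2 scale (interaction term in limma, SE 0.11, adjusted p = 0.00117), but by 0.48 and under the fold threshold with a constant of 1 FPKM. At 240 h all 3 kd libraries lay above the 3 ctrl libraries, while at 48 h the groups overlapped. For *Gpx4* the difference was 0.90 (SE 0.12, adjusted p = 0.000861), with kd below ctrl in all libraries at 48 h and above it at 240 h. With 3 libraries per group, no library of a member was tested as an outlier.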

How the results depend on the processing

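Of the recomputed log2 fold changes of members, 1282 kept their direction and their side of the threshold (for *Gpx2* and *Ucp2*, which carry no test, moved by less than the spread), 27 became calls, 23 ceased to be calls, 10 moved, and 8 changed sign, all of them small and not called. *Txnrd1* gave 0.01 and 0.02 at 48 h without library 3 of 48 h ctrl or library 2 of 48 h kd (range over left-out libraries -0.04 to 0.02), -0.01 between the ctrl groups without library 3 of 240 h ctrl (-0.01 to 0.06), and -0.0044 and -0.0028 from 72 h kd to 240 h kd without library 1 of 72 h kd or of 240 h kd. *Hmox1* gave -0.01 at 72 h against 240 h ctrl, and TPM gave 0.03 for *Gpx3* and 0.04 for *Srxn1* between the ctrl groups. The number of members called was 2 at 48 h, 3 at 72 h, 4 at 240 h, 2 from 48 h kd to 72 h kd, 3 from 72 h kd to 240 h kd and 2 for the difference between 240 h and 48 h. In that order it ranged over 1 to 2, 3 to 3, 1 to 5, 2 to 3, 2 to 3 and 2 to 3 when 1 library was left out. The 1 at 48 h came without library 1 of 48 h kd, the 1 at 240 h without library 1 of 240 h ctrl, and the 2 from 72 h kd to 240 h kd without library 1 of 240 h kd. Between the ctrl groups it was 0 under each alternative. A constant of 1 FPKM gave 2 at 240 h and 1 for the difference, and a minimum mean of 2 FPKM gave 1 for the difference, with fewer genes tested. Rescaling to TPM gave 4 from 48 h kd to 72 h kd. With no minimum fold change the counts were 7 at 72 h, 7 from 48 h kd to 72 h kd, 7 from 72 h kd to 240 h kd and 5 for the difference. A log2 fold change above 1 left 0 at 48 h, 1 at 72 h, 0 at 240 h, 1 from 48 h kd to 72 h kd and 0 for the difference.

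Libraries with the same replicate number did not deviate together (correlations of -0.158 to 0.142), so the numbers were not taken to pair them. With a replicate block, 1 member was called at 48 h (*Srxn1* had adjusted p = 0.0585), and no other call of a member changed.

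The other redox genes called numbered 3 at 48 h, 16 at 72 h, 5 at 240 h, 0 between the ctrl groups, 16 from 48 h kd to 72 h kd, 25 from 72 h kd to 240 h kd and 4 for the difference. Leaving out 1 library gave, without the ctrl groups, 3 to 4, 15 to 18, 4 to 6, 12 to 16, 23 to 27 and 2 to 4, the 2 coming without library 1 of 48 h ctrl or library 3 of 48 h kd. Without an FPKM minimum there were 6, 25 and 11 at the 3 knockdown times, and with 2 FPKM 10 at 72 h, 3 at 240 h and 2 between the ctrl groups. A constant of 1 FPKM gave 1 at 240 h, 8 and 16 between the kd groups and 2 for the difference. TPM gave 1 between the ctrl groups and 2 for the difference, quantile normalization 1 and a fit of all 15 libraries 2 between the ctrl groups. With limma voom there were 8, 29 and 16 at the knockdown times, 2 between the ctrl groups, 39 from 72 h kd to 240 h kd and 10 for the difference. No minimum fold gave 15, 57, 35, 3, 37, 61 and 16, and a log2 fold change above 1 gave 0 at 48 h, 7, 0 at 240 h, 3, 9 and 0 for the difference. Apart from the changed thresholds and numbers of genes, the cause was not tested.

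Under TPM the share of all calls that were higher was 91.1% in place of 74.1% between the ctrl groups, 67.9% in place of 55.9% from 48 h kd to 72 h kd and 53.9% in place of 40.9% from 72 h kd to 240 h kd. Over all genes, the calls numbered 456 at 48 h (208 with a constant of 1 FPKM, 1473 with limma voom, 285 with a replicate block), 1548 at 72 h (745 and 3642 with the first 2 of these) and 1016 at 240 h (541 and 2994). Depth limits *Gpx2* most, at 3 to 62 reads, and its size of change with it.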
